A study of Arabidopsis thaliana with 10 samples.

Results

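Salt at 12 h was compared with salt at 3 h in Arabidopsis thaliana seedlings: 2 of the 9 libraries with expression values, both of wild-type Col-0 seedlings aged 12 days and kept in 200 mM NaCl, which is a sodium as well as an osmotic load. The measured members were 1362 long noncoding RNA (lncRNA) loci, 384 annotated ones and 978 predicted by the authors in levels 1 and 2 (358 and 620). Each library is the strand-specific sequence of the RNA left after 4 rounds of poly(A)+ removal and 3 rounds of ribosomal RNA removal, read as single reads of 100 nt. There is 1 library for salt 12 h, 1 for salt 3 h and 1 for the untreated control, which was taken at 3 h; cold (4 °C), heat (37 °C) and drought (300 mM mannitol) have 1 library each at 12 h and at 3 h. The plants grew under 16 h of light and 8 h of dark, and no 12 h control was analysed here, so that time in salt and time of day cannot be told apart. The tables hold lncRNAs and no coding genes, so the tissue could not be checked against markers. In whole seedlings, fewer cells of a type and less RNA per cell cannot be told apart either.

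Salt reaches a seedling in phases: an early osmotic phase, in which water uptake falls and abscisic acid signalling begins, and a later phase in which sodium builds up in the tissue and growth is adjusted. lncRNAs are transcripts without a long reading frame. Some are precursors that are cut into small nucleolar RNAs (snoRNAs), which guide the chemical modification of ribosomal RNA, or into microRNAs (miRNAs), which silence target mRNAs; others lie opposite or beside coding genes. Since salt and the oligo(dT) steps were the same at both times, the comparison asks which of these transcripts differ between the early and the later library.

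The sequences that the results turn on are given first, 5′ to 3′, from the TAIR10.1 reference at the coordinates of the deposited tables and of the RefSeq annotation. Of the 25 loci read in the salt 12 h library alone, among the 9 libraries, 2 had at least 10 reads: level2_lnc-11 at chr1:2196532-2196818 on the plus strand and level2_lnc-127 at chr1:21648939-21649171 on the minus strand. Both are single-exon transcripts between genes.
level2_lnc-11: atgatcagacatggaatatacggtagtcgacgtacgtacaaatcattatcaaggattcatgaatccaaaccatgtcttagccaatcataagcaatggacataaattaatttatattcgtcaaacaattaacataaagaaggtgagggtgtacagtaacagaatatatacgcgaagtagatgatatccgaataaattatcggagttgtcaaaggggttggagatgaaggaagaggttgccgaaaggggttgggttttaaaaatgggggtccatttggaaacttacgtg
level2_lnc-127: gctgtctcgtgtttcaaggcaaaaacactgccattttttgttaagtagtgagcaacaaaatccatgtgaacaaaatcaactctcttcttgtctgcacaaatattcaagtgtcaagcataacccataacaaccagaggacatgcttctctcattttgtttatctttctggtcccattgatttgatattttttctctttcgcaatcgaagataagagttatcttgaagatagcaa
Those that carried reads at 3 h and at most 1 read at 12 h include level1_lnc-76 at chr1:30210903-30211197 on the minus strand and level2_lnc-611 at chr5:23700019-23700265 on the plus strand.
level1_lnc-76: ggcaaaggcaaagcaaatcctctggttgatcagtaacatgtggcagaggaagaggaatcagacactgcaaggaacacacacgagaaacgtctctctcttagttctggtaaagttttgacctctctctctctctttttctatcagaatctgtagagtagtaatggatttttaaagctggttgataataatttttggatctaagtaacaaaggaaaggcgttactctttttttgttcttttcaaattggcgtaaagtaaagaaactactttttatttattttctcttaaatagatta
level2_lnc-611: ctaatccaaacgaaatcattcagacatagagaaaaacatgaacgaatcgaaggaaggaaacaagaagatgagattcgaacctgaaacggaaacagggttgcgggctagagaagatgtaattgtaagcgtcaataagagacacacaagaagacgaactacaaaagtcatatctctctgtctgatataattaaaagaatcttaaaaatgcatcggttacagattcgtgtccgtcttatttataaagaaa
The snoRNAs within the exons of AT5G06165, one of the lncRNAs with the largest increases, are snoR133 at chr5:1867740-1867831 and snoR120 at chr5:1867605-1867678, both on the minus strand, and AtsnoR68 at chr2:18973424-18973508 on the plus strand lies within AT2G46192. Capitals mark TGATGA within the first 20 bases and CTGA within the last 20, the consensus boxes C and D of a large snoRNA class.
snoR133: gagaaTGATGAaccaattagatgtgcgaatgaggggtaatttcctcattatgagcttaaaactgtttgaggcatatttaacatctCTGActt
snoR120: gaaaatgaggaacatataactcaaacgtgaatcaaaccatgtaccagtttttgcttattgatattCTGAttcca
AtsnoR68: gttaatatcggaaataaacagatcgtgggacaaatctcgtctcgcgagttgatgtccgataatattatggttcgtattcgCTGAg
Of the 287 snoRNA genes in the annotation, 120 (41.8%) held both boxes in these windows, against 2 (0.697%) when the opposite strand of the same genes was read. The miRNA precursor AT4G13495 overlaps 3 miRNA genes, and the mature forms that lie within it follow with bases 2 to 8, the seed, in capitals and with T for U.
ath-miR5026: aCTCATAAgatcgtgacacgt
ath-miR850: tAAGATCCggactacaacaaag
ath-miR863-5p: tTATGTCTtgttgatctcaat
No 2 of these 3 seeds are alike. The other arm, miR863-3p, lies past the end of AT4G13495 and is not shown.

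The salt 12 h library held 17.6 M mapped reads, the salt 3 h library 31.5 M and the control 25.2 M, of a range of 17.6 M to 37.0 M over the 9 libraries. Reads on lncRNAs numbered 10399 at 12 h and 11549 at 3 h, against 11904 in the control, or 591, 366 and 473 per M mapped reads. The unit is RPKM, reads scaled to exon length in kilobases and to mapped reads in M, and 1 read on 1000 nt of exon equals 0.0569 RPKM at 12 h and 0.0317 RPKM at 3 h. At least 1 read fell on 590 loci at 12 h and on 518 at 3 h; 370 were read at both times, 220 at 12 h alone of the pair and 148 at 3 h alone. With 1 library at each time there is no replicate check and no test of the pair, and every interval below is an exact binomial 95% interval of the reads, which covers counting error only.

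More lncRNAs were higher than lower in the later library. A locus was called when log2(RPKM + 1) differed by at least 1, a rule of 2-fold that understates the change of low loci and cannot call a locus under 1 RPKM in the higher library. By this rule 69 of the 1362 loci were higher at 12 h (5.07%) and 13 were lower (0.954%), 82 in all (6.02%). Of the 148 loci with at least 1 RPKM at 12 h, 69 were called higher (46.6%), and of the 91 with at least 1 RPKM at 3 h, 13 were called lower (14.3%). A read is worth more RPKM in the shallower 12 h library, and at least 10 reads fell on 143 loci there and on 136 at 3 h. The part of depth in the calls was not tested. All 69 of the higher and 10 of the 13 lower loci had a read interval that excluded a ratio of 1. With at least 10 summed reads as well, 44 loci were higher (3.23%) and 9 lower (0.661%).

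**Figure D1:**
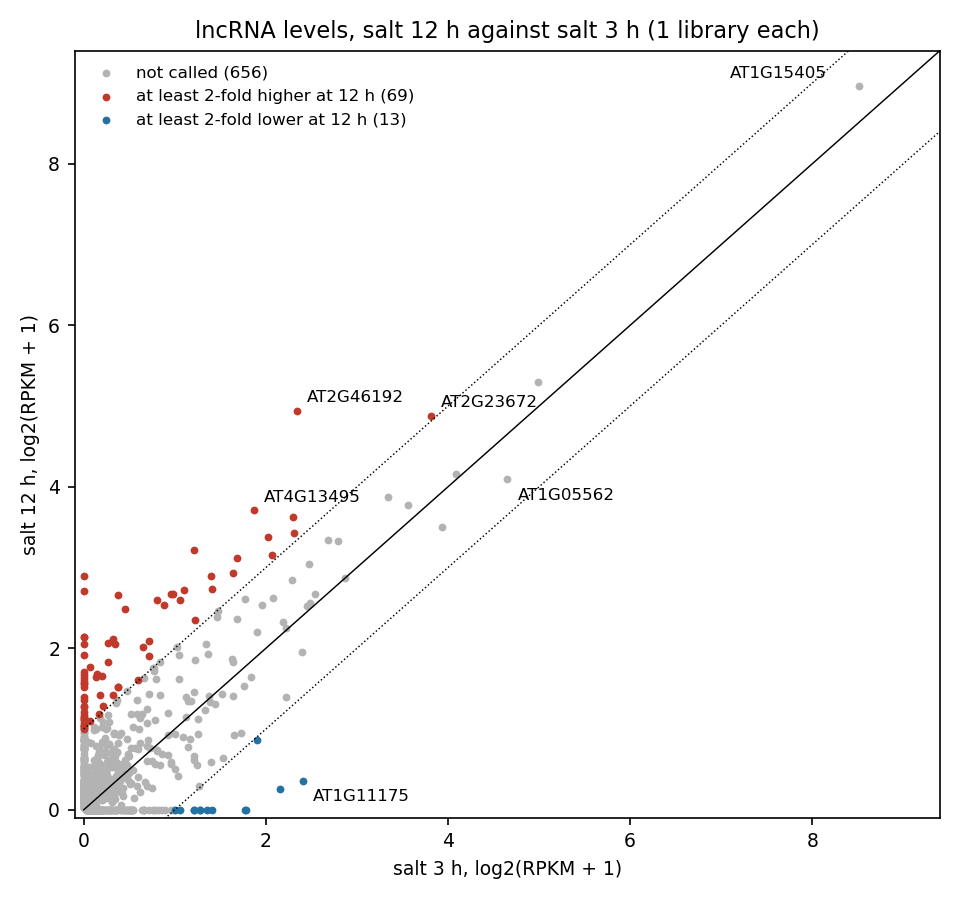
Level of each lncRNA read in either salt library, in log2(RPKM + 1), with salt 12 h on the vertical axis and salt 3 h on the horizontal axis; the solid line marks equal levels and the dotted lines a 2-fold difference. The 69 red points lie above the upper dotted line, 29 of them at 0 on the left edge, and the 13 blue points lie below the lower one.

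This imbalance depends on the scale of the libraries. Over the 55 loci with at least 20 reads at both times the median log2 ratio of RPKM, 12 h over 3 h, was 0.68. After both libraries were rescaled by that shift, 37 loci were higher and 25 lower, so that 59.7% of the calls were higher instead of 84.1%. Scaled to reads on lncRNAs other than AT1G15405, the counts were 37 and 28, and 56.9% were higher. The same shift, 12 h over 3 h, was 0.40 in drought over 53 loci, 0.36 in cold over 61 and 0.18 in heat over 55.

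The loci called higher at 12 h were mostly low at 3 h. Their level ran from 1.01 to 29.8 RPKM at 12 h with a median of 2.40, and from 0 to 13.0 RPKM at 3 h with a median of 0.134. A total of 29 of the 69 had no read at 3 h. In the control 40 of the 69 had no read; 67 were above the control at 12 h and 29 were above it at 3 h. At 12 h 56 of the 69 lay at least 2-fold over the control, while at 3 h 7 lay at least 2-fold under it. Salt 12 h was the highest of all 9 libraries for 52 of the 69, which were chosen for a high level there; over all 1114 loci with reads it was the highest for 193 (17.3%). The control library is shared by both of these comparisons, and the values are a description.

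By the authors' sets, 12 of 384 annotated, 18 of 358 level 1 and 39 of 620 level 2 loci were higher, and 1, 6 and 6 were lower. The median difference, 12 h minus 3 h in log2(RPKM + 1) over loci with reads, was 0.12 for annotated, 0.16 for level 1 and 0.23 for level 2 loci, beside 0.16 over all 738. Rescaled by the common shift it was 0.028, 0.044 and 0.17, and it also lay above 0 in each set when scaled to lncRNA reads. A read is worth more RPKM at 12 h than at 3 h, and its part in medians this small was not tested. By genomic class, as the authors name it, 23 of 345 cis loci were higher and 8 lower. Among 417 antisense loci 14 were higher and 4 lower, among 274 intergenic loci 14 and 0, among 177 transposable-element loci 8 and 0, among 127 small-RNA precursors 10 and 1, and among 22 pseudogenes 0 and 0. By the authors' polyadenylation class, 21 of 227 bimorphic loci (9.25%), found with and without a poly(A) tail, were higher and 7 lower, 11 of 122 Poly(A)- loci (9.02%) and 1, 21 of 387 Poly(A)+ loci (5.43%) and 1, and 16 of 626 loci without a class (2.56%) and 4, beside 5.07% higher over all loci. Of the 129 loci whose conserved structure the authors match to stress-related structures, 9 were higher (6.98%) and 0 lower. Of the 107 that the authors list with potential binding of the light-signalling factors PIF4 or PIF5, 7 were higher (6.54%) and 0 lower. Both shares lie near the 5.07% of all loci.

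At the same limit of 10 summed reads, called loci had shorter exons than uncalled ones. The median exon length was 389.5 nt over 44 higher and 257 nt over 10 lower loci, beside 898 nt over 163 uncalled ones; over all 1362 loci, most of them with few or no reads, it was 343 nt. Without the read limit it was 257 nt over the 69 higher and 245 nt over the 13 lower loci. The deposited H3K4me3 score, a histone mark of active promoters, had a median of 2.35 in the 44 higher and 1.91 in the 10 lower loci, beside 6.45 in the uncalled ones and 1.00 over all loci. A coding gene lay on the same strand at 12 of the 69 higher loci (17.4%) and at 5 of the 13 lower (38.5%), beside 121 of all 1362 (8.88%); at these loci reads of the coding transcript cannot be told from those of the lncRNA. The groups also differed in the authors' sets. Annotated loci made up 115 of the 217 loci with at least 10 summed reads, but 12 of the 44 higher and 1 of the 10 lower ones. A short locus passes 1 RPKM with fewer reads than a long one. The parts of length and of the authors' set in these medians were not tested.

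Among the loci read in the salt 12 h library, level2_lnc-11 was absent from all others. It had 28 reads (5.55 RPKM) at 12 h and 0 at 3 h, against 0 in the control, and 0 in each of the other 6 libraries. Its sequence, given above, lies 536 bp from MAPKKK13, a gene of the mitogen-activated protein kinase kinase kinase family. Against a floor of 3 reads in the salt 3 h library it was 16.7-fold higher at 12 h (interval from 12.7), with a difference of 2.71 in log2(RPKM + 1). Folds against this floor leave out the counting error of the other library, so they are not lower limits. Each is given with the start of its exact interval. level2_lnc-127 had 14 reads (3.42 RPKM) at 12 h and 0 at 3 h, against 0 in the control and 0 in the other 6. Against the floor it was 8.37-fold higher (interval from 5.95). Its nearest coding gene, ZF14, lies 3817 bp away. With the same rule of at least 10 reads in 1 library and 0 in all others, there were 2 such loci for salt 12 h and 0 for salt 3 h, beside 5 and 0 for cold, 6 and 2 for heat, 3 and 0 for drought at the same times, and 1 for the control.

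Other predicted loci were read at 12 h and in another stress. level1_lnc-185 at chr3:19484418-19486428 had the largest difference, 2.90, with 11 reads (6.45 RPKM) at 12 h and 0 at 3 h, against 0 in the control, and it had 9 reads in cold 12 h. Its exons sum to 97 nt, less than a read, and it lies on the strand of the coding gene AT3G52526. level2_lnc-48 at chr1:10070112-10070325, opposite AT1G28650, had 20 reads (5.31 RPKM) at 12 h and 2 (0.296 RPKM) at 3 h, against 0 in the control, a ratio of 17.9 (interval 4.35 to 158). It moved the same way in drought, the other osmotic stress, with 14 reads at 12 h and 0 at 3 h. level2_lnc-150 at chr1:27627161-27627579, opposite AT1G73470, had 25 reads (3.39 RPKM) at 12 h and 0 at 3 h, against 0 in the control. Against the floor of 3 reads it was 14.9-fold higher (interval from 11.3). It was also read in cold, with 23 reads at 12 h and 32 at 3 h, and in heat 12 h, with 2. In drought it had 5 reads at 12 h and 16 at 3 h, a difference of -0.65, opposite to salt.

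The remaining 3 predicted loci of the largest increases follow. level2_lnc-498 at chr5:660231-660446 had 12 reads (3.16 RPKM) at 12 h and 0 at 3 h, against 1 in the control. Against the floor of 3 reads it was 7.17-fold higher (interval from 4.98). level2_lnc-379 at chr3:21677764-21677969 had 10 reads (2.76 RPKM) at 12 h and 0 at 3 h, against 0 in the control. Against the same floor it was 5.98-fold higher (interval from 4.02). level1_lnc-334 at chr5:22454986-22455245 had 21 reads (4.59 RPKM) at 12 h and 3 (0.366 RPKM) at 3 h, against 6 (0.916 RPKM) in the control, a ratio of 12.5 (interval 3.75 to 65.7). It was read in all 9 libraries and salt 3 h was its lowest. A further 54 called loci, outside the rule for named loci, had 4 to 201 reads at 12 h and 0 to 99 at 3 h, with differences of 1.00 to 1.80.

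**Figure D2:**
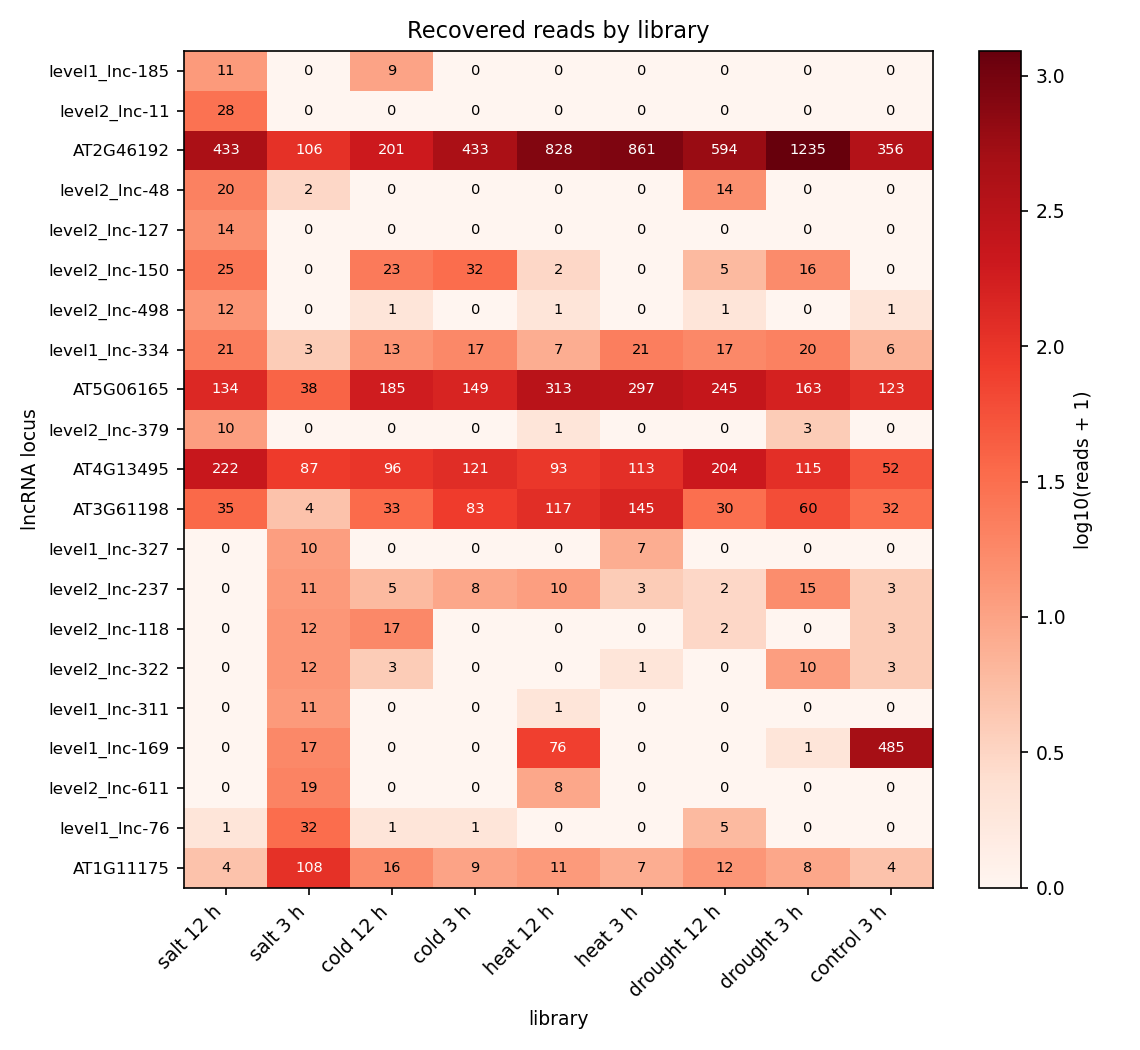
Whole reads recovered in each of the 9 libraries (columns) for the 12 loci with the largest increase at 12 h and the 9 that met the same rule for a decrease (rows, from the largest increase at the top); shading is log10(reads + 1), and reads are not scaled to depth. level2_lnc-11 and level2_lnc-127 have reads in the salt 12 h column alone, with 28 and 14, and AT1G11175 has 108 reads in salt 3 h and at most 16 elsewhere.

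Of the 12 largest increases 4 were at annotated loci, each of them classed as or overlapping a small-RNA precursor. At 3 of these 4 the salt 3 h library was the lowest of the 9. Loci called higher were chosen for a rise over salt 3 h, so a low rank of that library follows in part from the choice. Salt 3 h was the lowest for 7 of the 23 higher loci read in all 9 libraries (30.4%). Over all 144 loci so read it was the lowest for 17 (11.8%). AT2G46192 at chr2:18973307-18974133 overlaps 5 snoRNA genes on its strand, 4 of them whole and snoR157 by 24 of its 122 bases. It had 433 reads (29.8 RPKM) at 12 h and 106 (4.06 RPKM) at 3 h, against 356 (17.1 RPKM) in the control, a ratio of 7.32 (interval 5.91 to 9.14) and a difference of 2.60. Salt 3 h was the lowest; the 7 libraries outside the salt pair ran from 7.64 to 57.2 RPKM. AT5G06165 at chr5:1867197-1868244, host of snoR120 and snoR133, had 134 reads (8.29 RPKM) at 12 h and 38 (1.31 RPKM) at 3 h, against 123 (5.31 RPKM) in the control. The ratio was 6.32 (interval 4.38 to 9.32), and salt 3 h was again the lowest library, with the 7 outside the pair from 4.92 to 12.7 RPKM. AT1G15002, which holds AtsnoR92 and lies opposite scpl50, had 44 reads (5.04 RPKM) at 12 h and 17 (1.09 RPKM) at 3 h, against 57 (4.56 RPKM) in the control, a ratio of 4.64 (interval 2.60 to 8.66), and salt 3 h was its lowest library too.

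AT5G15022 differed in its order. It holds 4 snoRNA genes, among them those of U18 and U54, and had 95 reads (7.68 RPKM) at 12 h and 49 (2.21 RPKM) at 3 h, against 27 (1.52 RPKM) in the control. Here both salt libraries lay above the control, and the ratio of 12 h to 3 h was 3.48 (interval 2.44 to 5.01). Rescaled by the common shift, its difference was 0.90 and it was no longer called. The host with the most reads, AT3G55485, had 340 reads (38.3 RPKM) at 12 h and 491 (30.8 RPKM) at 3 h, against 494 (38.8 RPKM) in the control, a difference of 0.30 that turned to -0.36 when rescaled. AT2G43375 had 142 reads (5.12 RPKM) at 12 h and 120 (2.41 RPKM) at 3 h, against 130 (3.27 RPKM) in the control, a ratio of 2.12 (interval 1.65 to 2.73) that the rule did not call.

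Across the 13 loci that overlap a snoRNA gene on their strand, 4 were called higher (30.8%, beside 5.07% of all loci) and 0 lower. Of the 12 with reads, 11 had a positive difference and 1 a negative one, and the median difference was 0.45; after rescaling by the common shift 8 were positive and 4 negative, 3 were called higher and 0 lower, and the median was 0.27. Summed over the list, reads per M mapped reads were 71.1 at 12 h and 28.3 at 3 h. Of the 10 such loci read in all 9 libraries, salt 3 h was the lowest library for 4 (40.0%) and cold 12 h for 4, beside 17 of 144 loci (11.8%) over the whole table for salt 3 h. At 2 of the 13, level1_lnc-211 and level1_lnc-65, the overlap is 6 and 10 bases at the locus's end, so the snoRNA lies mostly outside. Of the 11 with a whole snoRNA gene in their exons, 4 were higher (36.4%) and 0 lower, with 11 positive differences and a median of 0.59. Rescaled, 8 were positive and 3 negative, 3 were higher, and the median was 0.29. The 30.8% and 36.4% are not matched to all loci for level. Of the 13, 10 had at least 10 summed reads, beside 217 of all 1362 loci. Among all loci with at least 1 RPKM at 12 h, 69 of 148 were called higher (46.6%). The remaining loci of the list, AT3G02832, AT1G20691, AT1G16635, AT1G18745, level1_lnc-211, level1_lnc-312 and level1_lnc-65, had 0 to 21 reads in each salt library. level1_lnc-211 had the negative difference of -0.09.

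**Figure D3:**
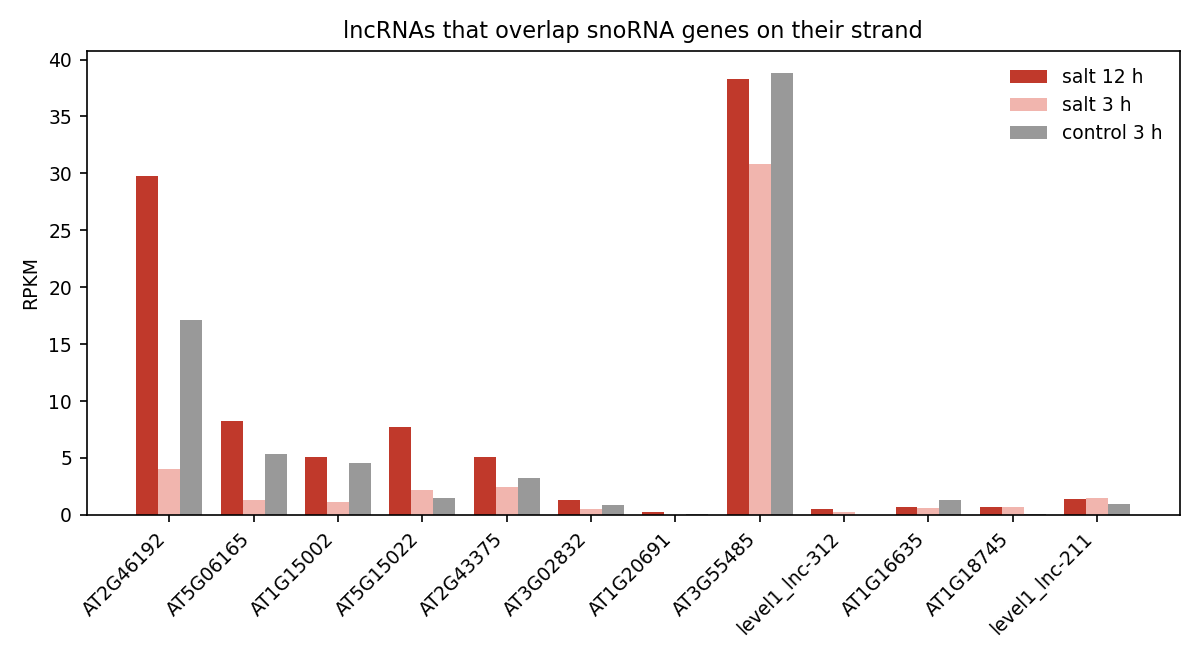
RPKM of the 12 loci that overlap a snoRNA gene on their strand and have reads in either salt library, ordered by their difference, with bars for salt 12 h (dark red), salt 3 h (pale red) and the control at 3 h (grey), 1 library each and no error bars. AT2G46192 stands at 29.8, 4.06 and 17.1 RPKM in that order, and AT3G55485 at 38.3, 30.8 and 38.8 RPKM.

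The miRNA precursor AT4G13495 at chr4:7842967-7846774 overlaps the genes of miR5026, miR850 and miR863. It had 222 reads (12.1 RPKM) at 12 h and 87 (2.65 RPKM) at 3 h, against 52 (1.98 RPKM) in the control, a ratio of 4.57 (interval 3.55 to 5.93) and a difference of 1.85. Salt 12 h was the highest and the control the lowest of the 9 libraries, and in drought the difference of 12 h minus 3 h was 0.98, short of the call. Of the 6 loci that overlap a miRNA gene on their strand, 4 had reads in the pair; 1 was called higher (16.7%, a single locus, beside 5.07% of all loci) and 0 lower, and rescaled by the common shift 1 was higher and 1 lower. AT5G26146, which overlaps the gene of miR156f, of a family that holds back the change from juvenile to adult growth, had 0 reads at 12 h and 19 (0.857 RPKM) at 3 h, against 0 in the control. Against a floor of 3 reads at 12 h it was 3.53-fold lower (interval from 2.60), with a difference of -0.89 that the rule did not call. AT4G03038 had 5 reads at 12 h and 0 at 3 h. AT4G30975, which overlaps the gene of miR156b, had 4 at each time, and AT4G39838 and level1_lnc-343 had 0 at both. The mature forms of miR156b, at chr4:15074945-15074964 and chr4:15075004-15075026, lie before the start of AT4G30975 at 15075042. The values are of these loci and not of the mature miRNAs. Whether the mature forms lie in the exons counted was not tested.

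AT3G61198 at chr3:22655884-22656599, which the authors class as a small-RNA precursor, had 35 reads (3.20 RPKM) at 12 h and 4 (0.204 RPKM) at 3 h, against 32 (2.04 RPKM) in the control. The ratio was 15.7 (interval 5.61 to 60.8). Salt 3 h was its lowest library, and the 7 outside the pair ran from 1.67 to 6.29 RPKM.

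Loci lower at 12 h had few or no reads there, and for 7 of the 13 salt 3 h was the highest of the 9 libraries. Both follow in part from the rule, which chose them for a higher level at 3 h than at 12 h. Over all 1114 loci with reads salt 3 h was the highest for 91 (8.17%). AT1G11175 at chr1:3744858-3745655, 119 bp from SCAMP2, a gene of a secretory carrier membrane protein, had 4 reads (0.285 RPKM) at 12 h and 108 (4.29 RPKM) at 3 h, against 4 (0.199 RPKM) in the control. It was 15.1-fold lower at 12 h (interval 5.72 to 56.3), a difference of -2.04, and had at most 16 reads in any other library. level1_lnc-76, on the strand of the coding gene AT1G80360, had 1 read (0.193 RPKM) at 12 h and 32 (3.44 RPKM) at 3 h, against 0 in the control, 17.9-fold lower (interval 2.98 to 727). In the authors' deposited table of gene ontology terms it is listed under many terms. They run from cell part, with 177 lncRNAs, to kinase activity, with 64, and protein folding, with 32. The false discovery rate given there, 1.7e-16 for protein folding, belongs to the term and not to this locus. Which libraries that table rests on was not stated in the labels or headers. level2_lnc-611 lies opposite PSY1, here the gene of a sulfated secreted peptide that promotes cell growth. It had 0 reads at 12 h and 19 (2.44 RPKM) at 3 h, against 0 in the control. Against a floor of 3 reads at 12 h it was 3.53-fold lower (interval from 2.60).

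The other loci called lower under the same rule had 0 reads at 12 h and from 10 to 17 at 3 h. level1_lnc-169 at chr3:12670276-12670499 had 0 at 12 h and 17 (2.41 RPKM) at 3 h, against 485 (86.0 RPKM) in the control; its sequence gave 28 alignments in the genome at 90% identity over 80% of its length, so its reads cannot be placed with certainty. level1_lnc-311, on the strand of SDG25, a histone methyltransferase gene, had 11 reads at 3 h, against 0 in the control. level2_lnc-322, opposite EXPA5, an expansin gene of cell wall loosening, had 12 at 3 h, against 3 in the control, with a difference of -1.36 in drought and -1.35 in salt. level2_lnc-237, on the strand of the myosin gene XIF, had 11 at 3 h, against 3 in the control, with a difference of -1.22 in drought and -1.21 in salt. level2_lnc-118, on the strand of AT1G55200, had 12 at 3 h, against 3 in the control, and its difference in cold was 1.58. level1_lnc-327, opposite the sugar transporter gene SWEET10, had 10 at 3 h, against 0 in the control; it was called just past the threshold. Of all 13 lower loci, chosen for a high level at 3 h, 9 were at least 2-fold over the control at 3 h. Among the 163 uncalled loci with at least 10 summed reads 29 were.

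Of the 6 lncRNAs with the most reads, 2 were called, AT2G46192 above and AT2G23672. AT1G15405 took 24.5% of all lncRNA reads at 12 h and 29.0% at 3 h, against 44.0% in the control. It had 2548 reads (496 RPKM) at 12 h and 3348 (364 RPKM) at 3 h, against 5235 (712 RPKM) in the control, and the ratio of 12 h to 3 h was 1.36 (interval 1.30 to 1.44); its difference of 0.45 turned to -0.23 when rescaled. Salt 3 h was its lowest library. AT2G23672, opposite the photosystem I assembly gene YCF37, had 380 reads (28.4 RPKM) at 12 h and 312 (13.0 RPKM) at 3 h, against 306 (16.0 RPKM) in the control, a difference of 1.07 that was 0.42 when rescaled, below the call. AT1G05562, antisense to the glucosyltransferase gene UGT75B1, had 364 reads (16.1 RPKM) at 12 h and 979 (24.1 RPKM) at 3 h, against 189 (5.83 RPKM) in the control. The ratio of 12 h to 3 h was 0.667 (interval 0.589 to 0.753), with a difference of -0.56 that the rule did not call and that was -1.20 when rescaled. Salt 3 h was the highest library for AT1G05562. level1_lnc-170 had 177 reads (16.9 RPKM) at 12 h and 301 (16.0 RPKM) at 3 h, against 75 (5.00 RPKM) in the control, and lies in a repeat with 243 alignments in the genome.

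Of the 14 lncRNAs with a known function or name that were looked up, 5 were in the tables and 0 were called. GUT15 (AT2G18440) had 83 reads (2.78 RPKM) at 12 h and 57 (1.07 RPKM) at 3 h, against 210 (4.92 RPKM) in the control. Its ratio was 2.61 (interval 1.84 to 3.72), its difference was 0.87, and salt 3 h was the lowest of its 9 libraries. ASCO (AT1G67105), which binds regulators of splicing, had 12 reads (0.868 RPKM) at 12 h and 0 at 3 h, against 1 in the control. Against a floor of 3 reads at 3 h it was 7.17-fold higher (interval from 4.98), with a difference of 0.90. FLORE (AT1G69572), antisense to the flowering-time gene CDF5 and known to cycle with the clock, had 5 reads at 12 h and 0 at 3 h, against 1 in the control. Against the same floor it was 2.99-fold higher (interval from 1.64). DRIR (AT1G21529), known for its role in drought and salt tolerance, had 2 reads at 12 h and 0 at 3 h, against 0 in the control, and ELENA1 (AT4G16355), an immune lncRNA, had 0 at 12 h and 1 at 3 h, against 0 in the control. At this depth no difference was detectable for DRIR and ELENA1.

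Coding genes of salt response and of the clock were looked up for lncRNAs beside them. Of 32 genes of salt, osmotic and abscisic acid response, 1 overlapped a lncRNA or lay within 1000 bp of one, and of 18 clock genes 2 did. The share over all coding genes was not computed. level2_lnc-504, 798 bp from DREB2A, a transcription factor gene of the dehydration response, had 0 reads at 12 h and 3 at 3 h, against 0 in the control. level2_lnc-279, opposite the clock gene RVE8, had 0 reads in both salt libraries and 8 in cold 12 h. The third pair is FLORE and CDF5.

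The 12 h against 3 h difference could be set beside that of cold, heat and drought, whose libraries are not those of salt. In drought 88 loci were higher (6.46%) and 12 lower (0.881%), in heat 58 (4.26%) and 5 (0.367%), and in cold 48 (3.52%) and 14 (1.03%). Of the 69 loci higher in salt, 14 were also called higher in drought (20.3% of the salt and 15.9% of the drought loci), 12 in heat (17.4% and 20.7%) and 6 in cold (8.70% and 12.5%). The difference was positive for 43 of the 69 in drought, 34 in heat and 35 in cold, and negative for 12, 15 and 19. Over all 1362 loci, many of them without reads, it was positive for 558, 486 and 508. Among the 163 uncalled loci with at least 10 summed salt reads it was positive for 114, 100 and 109, and negative for 46, 53 and 50. Of these uncalled loci, 22 were called higher in drought, 14 in heat and 19 in cold. The 2 sets are not matched for reads, since 25 of the 69 had fewer than 10 summed salt reads. Whether positive differences were more or less frequent among the 69 was therefore not tested. For 17 of the 69 the difference was positive in all 3, and for 12 in none. AT2G46192 had differences of -0.73 in drought, 0.05 in heat and -0.97 in cold, beside 2.60 in salt.

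**Figure D4:**
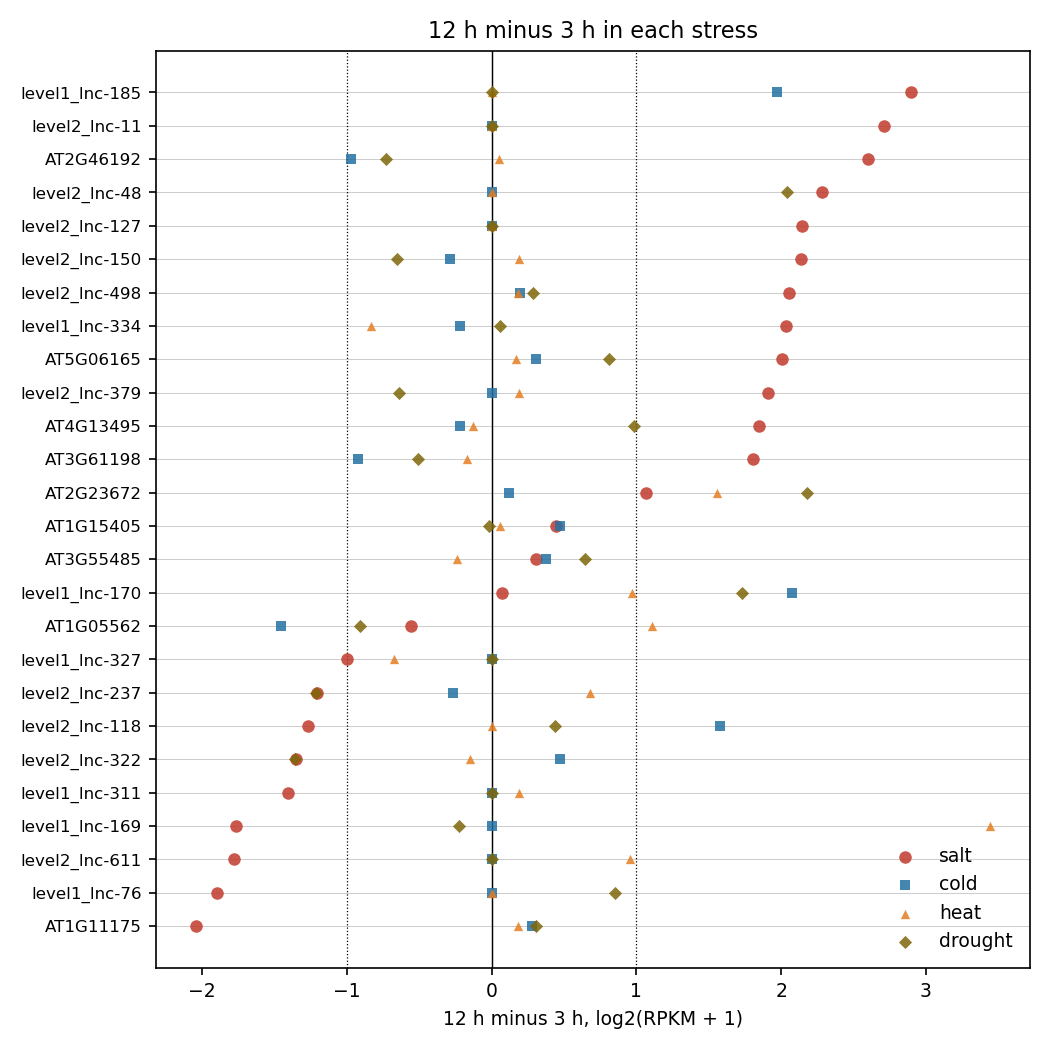
Difference of 12 h minus 3 h in log2(RPKM + 1) in salt (red circles), cold (blue squares), heat (orange triangles) and drought (olive diamonds) for the loci with the largest increases and decreases and the most reads, ordered by salt with the highest at the top; dotted lines mark 2-fold and each point is 1 pair of libraries. Among the 12 largest salt increases the other stresses lie between the dotted lines, except cold at level1_lnc-185 (1.97) and drought at level2_lnc-48 (2.04).

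A fit over the 8 stress libraries tested whether the salt difference departed from the time difference of the other 3 stresses. It was limma on log2(RPKM + 1) over 175 loci with a mean of at least 0.5 RPKM, with terms for stress, time and salt by time, and the salt pair was assumed to vary like the other pairs. The salt-by-time term passed Benjamini-Hochberg adjusted p under 0.05 at 0 loci and unadjusted p under 0.05 at 11 (6.29%), and the smallest limma adjusted p was 0.471. That adjusted p was shared by 6 loci, with terms of -2.30 at AT1G11175 (SE 0.47), 2.38 at level2_lnc-150 (SE 0.55), 2.71 at level2_lnc-11 (SE 0.63), 3.15 at AT2G46192 (SE 0.75), 2.36 at level1_lnc-334 (SE 0.62) and 2.34 at AT3G61198 (SE 0.62). The term of level2_lnc-11, which has 0 reads in the other 7 libraries fitted, is its salt difference itself and adds nothing to it. The time term of the other 3 stresses passed the adjusted threshold in limma at 0 loci and the unadjusted one at 21 (12.0%), with a smallest adjusted p of 0.356. Of the 69 loci higher in salt 40 were fitted, and 32 of them had a positive time term in the other stresses, beside 135 positive and 39 negative over all loci fitted.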

How the data were processed

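The deposited RPKM of 9 poly(A)- libraries were used, values that the authors scaled to length and depth (RPKM per the file headers). The submitters' processing notes name the build TAIR10, Bowtie 0.12.9, TopHat2 2.0.8 and Cufflinks; no header or label names the rule by which reads were counted. Conservation and histone values are deposited scores per transcript, and the deposited gene ontology table gives p-values corrected to false discovery rates by the authors. A further 24 columns of per-sample values were not used.

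RPKM times exon length fell on whole multiples of 1 step per library (within 0.02 reads), which gave mapped reads and whole reads. All 364 and 308 non-zero values of predicted loci at 12 h and 3 h were whole. Annotated values were whole (226 and 210 of as many) only after they were re-matched to loci by the number after G in the identifier, against 8 and 13 in deposited order; this was chosen after seeing the data.

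Differences used a pseudocount of 1 RPKM. Python 3.11.15 and limma 3.58.1 (R 4.3.3; trend, Benjamini-Hochberg) were used, checked on simulated data. Named loci are the 12 largest increases and up to 12 decreases past 2-fold with an interval excluding 1 and at least 10 summed reads, the 6 with most reads, the known lncRNAs, and the 3 smallest p of salt by time (AT1G11175, level2_lnc-150 and level2_lnc-11, by unadjusted p since 6 loci tie after adjustment). Members and lists were chosen with earlier results of these data known. Genes and snoRNAs come from RefSeq on TAIR10.1, whose nuclear chromosomes are those of TAIR10 and where all 384 annotated identifiers matched.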

Additional observations from a re-analysis of the deposited data

How the results depend on the processing

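Main counts were 69 higher and 13 lower. They were 323 and 122 with a pseudocount of 0.1 RPKM, 134 and 29 with 0.5, 44 and 10 over loci with at least 10 summed reads, 9 and 1 at 4-fold, 37 and 25 rescaled by the common shift, 37 and 28 scaled to lncRNA reads other than AT1G15405, and 146 and 18 by the ratio and its interval alone. In deposited order of annotated values they were 69 and 13, with 57 and 12 loci shared, and AT5G06165 reversed to -0.010. The median difference over all, annotated, level 1 and level 2 loci was 0.70, 0.51, 0.66 and 1.19 with a pseudocount of 0.1 RPKM, 0.27, 0.20, 0.29 and 0.42 with 0.5, 0.27, 0.21, 0.54 and 0.48 with at least 10 reads, 0.064, 0.028, 0.044 and 0.17 rescaled, and 0.053, 0.013, 0.011 and 0.16 scaled to lncRNA reads. The causes of these moves were not tested beyond what each setting itself changes. Of the 46 named loci, 14 lost their call at 4-fold, 8 in deposited order (AT5G06165 among them) and 2 in each rescaling (AT2G23672 and AT5G15022).

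In limma, loci under unadjusted p 0.05 for salt by time numbered 138 without the filter on low values. Without the filter 1107 loci were fitted, beside 175 in the main fit. For the time term, loci under unadjusted limma p 0.05 were 37 of 1107 without the filter, beside 21 of 175 in the main fit. They were 11 of 175 rescaled, 11 of 200 without heat and 5 of 164 without drought. Without the filter 50 of the 69 higher loci had a positive time term, beside 777 positive and 274 negative over all loci fitted. No paired analysis was possible because the only replicate number is 1, so no number pairs libraries; the limma fit compares the times within each stress. A library of 17.6 M reads limits the 12 h side: a locus with 0 reads there may hold up to 3.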
